A study of Mus musculus with 7 samples.

Results

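A set of 10 genes for Paneth cell products and epithelial antimicrobial proteins was described in duodenal RNA of mice with and without PPARα in the intestinal epithelium, out of 14795 genes measured. They are the rows of the deposited expression table whose symbol is Lyz1, Mmp7, Ang4, Itln1, Defa17, Defa22, Defa26, Reg3a, Reg3b or Reg3g, and all 10 were present. The duodena came from 3 control and 4 knock-out male mice, of strain C57BL/6 by the labels and of a predominantly C57BL6/J background by the methods, and each of the 7 libraries, labelled as a biological replicate, was taken as 1 mouse. The controls, called Ppara lox/lox, carried 2 floxed alleles of Ppara and no Cre. The knock-outs, called Ppara I-KO, carried the same floxed alleles and Villin-Cre, a transgene that is active in the epithelium and not in the other layers of the gut wall, from before birth. According to the study's methods and legends both groups were fed a high-fat diet, for several weeks by the methods, whereas the labels give no diet. By the methods, the Ppara mice lived in a conventional and not a specific-pathogen-free facility. High-fat diet cohorts were caged by genotype or mixed, and which held for these mice was not given. The labels describe 6 h without food and then 6 h of refeeding before the mice were killed at midnight, for both groups alike. The methods instead describe a fast of some hours before killing, unless specified otherwise. The age at killing was not given in the sources used here.

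Paneth cells sit at the base of the small intestinal crypts, next to the stem cells, and release granules of lysozyme and alpha-defensins into the crypt lumen. Alpha-defensins are made as inactive precursors, which in mice are cut to their active form by matrilysin, the product of Mmp7. The Reg3 lectins are secreted by Paneth cells and also by enterocytes, and Reg3b and Reg3g are known to rise with microbial signals that act through MyD88, IL-22 and STAT3.

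The members Defa17, Defa22 and Defa26 are alpha-defensins of the same gene cluster on mouse chromosome 8, and their coding sequences are shown because near-identical copies limit how reads can be assigned to one of them. Each is 279 bases long in the GENCODE M21 transcripts of GRCm38, the assembly also called mm10. Capitals mark the positions at which the 3 sequences are not all the same.
Defa17, chr8:21655780-21656735: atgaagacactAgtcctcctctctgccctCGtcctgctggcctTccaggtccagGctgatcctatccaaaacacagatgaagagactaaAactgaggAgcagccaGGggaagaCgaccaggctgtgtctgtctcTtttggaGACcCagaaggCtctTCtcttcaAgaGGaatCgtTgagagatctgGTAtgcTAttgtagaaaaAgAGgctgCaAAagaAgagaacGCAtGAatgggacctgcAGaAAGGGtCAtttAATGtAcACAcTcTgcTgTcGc
Defa22, chr8:21162277-21163249: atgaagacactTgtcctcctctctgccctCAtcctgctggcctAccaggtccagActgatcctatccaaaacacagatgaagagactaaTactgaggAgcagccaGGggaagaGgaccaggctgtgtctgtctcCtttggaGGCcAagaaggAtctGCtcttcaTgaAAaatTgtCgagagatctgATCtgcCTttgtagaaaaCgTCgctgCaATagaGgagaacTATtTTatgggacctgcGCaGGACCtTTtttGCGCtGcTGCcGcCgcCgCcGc
Defa26, chr8:21618183-21618972: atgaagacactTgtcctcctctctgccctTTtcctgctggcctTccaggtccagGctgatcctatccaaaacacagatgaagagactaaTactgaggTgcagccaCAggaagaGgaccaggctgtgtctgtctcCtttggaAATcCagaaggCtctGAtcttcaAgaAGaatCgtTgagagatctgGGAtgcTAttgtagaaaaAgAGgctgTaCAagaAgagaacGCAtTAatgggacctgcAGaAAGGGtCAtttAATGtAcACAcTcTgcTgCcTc
The sequences differed at 62 positions. Of these, 11 lay in the first 139 bases, which code for the signal peptide and the start of the propeptide, and 51 lay in the last 140 bases, which hold the part coding for the mature peptide. Defa17 and Defa26 were identical at 259 of the 279 bases (92.8%), Defa17 and Defa22 at 228 (81.7%), and Defa22 and Defa26 at 225 (80.6%). The longest run of identical bases in any of these pairs was 58, which is shorter than the reads of 100 bases.

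Reads of 100 bases could still not be assigned to 1 gene with equal certainty for all members. Of the 298 windows of 100 bases in Defa17 transcripts, 28 (9.40%) occurred in no other gene, and 270 were also found in Defa3. Of the 320 windows in Defa22, 191 (59.7%) were unique, and 129 were shared with Defa21. The share was 98.9% for Defa26, 97.9% for Lyz1, where 24 windows also occur in Lyz2, and 97.4% for Mmp7. It was 100% for Ang4, Itln1, Reg3a, Reg3b and Reg3g. How reads that fit several genes were counted was not given in the sources used here, so the values of Defa17 and Defa22 are uncertain as values of a single gene.

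In RefSeq, 8 of the 10 members had a promoter window for GRCm38.p6, and Defa17 and Defa26 had none. The 120 bases before the RefSeq start are shown, 5′ to 3′ on the strand of the gene, for 3 genes of the Paneth cell secretory set and for the 3 Reg3 genes, since Reg3b and Reg3g moved differently between mice from the first set, and Reg3a differently from both. Capitals mark the letters TATAAA on the gene's strand and, on either strand, CTTTGAT, the core of sites for TCF/LEF factors of the Wnt pathway.
Lyz1, chr10:117292869-117292988, - strand: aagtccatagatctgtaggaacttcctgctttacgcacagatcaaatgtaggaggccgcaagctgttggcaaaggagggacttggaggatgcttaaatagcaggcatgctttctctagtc
Mmp7, chr9:7691970-7692089, + strand: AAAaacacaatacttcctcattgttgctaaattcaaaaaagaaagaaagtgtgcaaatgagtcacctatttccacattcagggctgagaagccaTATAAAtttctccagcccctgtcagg
Defa22, chr8:21162157-21162276, + strand: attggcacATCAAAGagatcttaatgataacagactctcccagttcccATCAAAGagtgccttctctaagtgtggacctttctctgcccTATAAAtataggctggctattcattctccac
Reg3a, chr6:78380589-78380708, + strand: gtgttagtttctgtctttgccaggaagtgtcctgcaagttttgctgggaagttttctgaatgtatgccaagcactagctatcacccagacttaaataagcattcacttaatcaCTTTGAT
Reg3b, chr6:78370765-78370884, + strand: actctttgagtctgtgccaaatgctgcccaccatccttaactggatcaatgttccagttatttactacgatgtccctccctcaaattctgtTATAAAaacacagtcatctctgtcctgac
Reg3g, chr6:78468875-78468994, - strand: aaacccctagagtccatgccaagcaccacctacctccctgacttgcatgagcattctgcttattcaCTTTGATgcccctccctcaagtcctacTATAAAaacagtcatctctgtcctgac
The Mmp7 stretch opens with the last 3 letters of a further TATAAA, and the Reg3b stretch lies inside the longer Reg3b gene of GENCODE. TATAAA lay between 31 and 21 bases before the start of Reg3b, Reg3g, Defa22 and Mmp7. Within 250 bases before the start it occurred in 7.59% of 32851 promoters. CTTTGAT, searched on both strands, occurred in 3.21% of these promoters. It was found in Defa22, where it lay at 2 places, in Reg3a, in Reg3g, and in the other of the 2 windows of Mmp7. That Mmp7 match lies inside the Mmp7 gene of GENCODE and not before it. The letters TTCNNNGAA, a spaced STAT motif, occurred in 7.02% of promoters, and among the members in Reg3b and Ang4, in both cases farther from the start than the stretches printed. AGGTCANAGGTCA, the consensus of the element to which PPARα binds, occurred in 0.0335% of promoters and in none of the members' windows. The stretches of Reg3b and Reg3g shared a run of 20 bases, acagtcatctctgtcctgac, which ends at the start site of both genes. The longest run shared with the stretch of Reg3a was 7 bases for Reg3b and 11 bases for Reg3g. Such matches describe the letters of the window and do not show binding.

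The values are CPM, that is, read counts per gene that the authors scaled to an adjusted library size so that mice can be compared. All 10 members were detected in every mouse, the lowest value being 6.36 CPM (Ang4). The step between low values places between 20745155 and 25865823 reads per library on the listed genes. The member with the fewest reads in any library was Ang4, with 120 reads, which gives a counting error of 9.12%. For the other members counting error was smaller, so the spread between mice set the precision. For Ppara itself the lox/lox mice had values of 53.4, 49.3 and 63.2 CPM. The I-KO mice had 33.1, 40.6, 47.5 and 69.9 CPM, and the highest of all 7 values was that of the library labelled I-KO 4. Which part of Ppara the Cre removes was not given in the sources used here, and a value per gene counts reads from its other exons and from other tissue layers. Of 14 known PPARα targets, 13 were lower in I-KO mice on average, and 1 passed the test, the malic enzyme gene Me1 (log2 fold change -1.28, adjusted p = 0.0456 in limma's test). These targets, like the other lists, were chosen with earlier results of these data known, so they give no independent check of the labels. Cyp4a10, a fatty acid hydroxylase, was at 1.78, 2.57 and 4.87 CPM in lox/lox mice, against 0.29, 0.24, 0.21 and 0.58 CPM in I-KO mice, without overlap. The library labelled I-KO 4 was the highest of the I-KO mice for this gene. Ehhadh, a target named for its values, was highest of all 7 in that library, at 185 CPM. In lox/lox mice Ehhadh was at 150, 156 and 171 CPM. Relative to each gene's mean over the 7 mice, the 14 targets had a log2 median of -0.23 in that library. In lox/lox mice this median was 0.28, 0.11 and 0.77. Libraries are named by their labels throughout.

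For none of the 10 genes did the difference between Ppara lox/lox and Ppara I-KO duodena pass the test. In limma's test on log2(CPM + 1), 0 of 10 members passed an adjusted p of 0.05, against 4 of 13399 genes tested (0.0299%). At an unadjusted p of 0.05 the count was again 0 of 10, against 4.74% of all genes, and no member had groups without overlap, against 6.19% of all genes. The log2 fold change, I-KO over lox/lox, was negative for 9 members and positive for Ang4, with a median of -0.15 beside 0.0017 for all genes tested. This median was -0.35 without I-KO 2, -0.0022 without I-KO 3 and -0.06 without lox/lox 2. The smallest adjusted p among the members was 0.954.

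**Figure D1:**
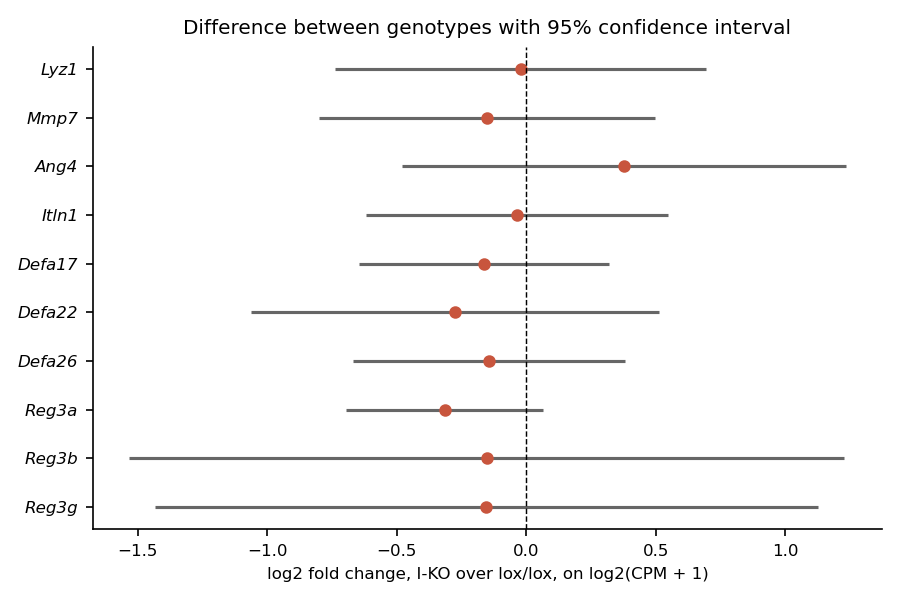
The log2 fold change of each of the 10 genes, I-KO over lox/lox on log2(CPM + 1), is shown as a point with its 95% confidence interval from limma (3 and 4 mice). All 10 intervals include 0, and those of Reg3b and Reg3g are the widest.

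The data leave room for sizeable differences. The half-width of the 95% confidence interval had a median of 0.68 on the log2 scale over the members. The interval was narrowest for Reg3a, from -0.69 to 0.06, and widest for Reg3b, from -1.53 to 1.23. The residual spread of 9 of the 10 members was in the top 5% of all genes tested, with a median SD of 0.51 over the members against 0.14 over all genes. A missed threshold does not show equal levels.

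Lysozyme 1, which digests bacterial cell walls and is the classical Paneth cell marker, was at 1101, 1555 and 1185 CPM in lox/lox mice. In I-KO mice Lyz1 was at 1009, 2002, 729.8 and 1643 CPM, so that the highest and the lowest of the 7 values both came from I-KO mice. Its mean was 1280 ± 242 (SD, n = 3) against 1346 ± 581 (SD, n = 4), with a log2 fold change of -0.02 (SE 0.32) and an exact permutation p of 0.914. The mean CPM and the mean log2 value thus differed in sign, as they did for Itln1, Reg3b and Reg3g.

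Mmp7, the protease that activates alpha-defensins, was at 32.9, 36.9 and 28.0 CPM in lox/lox mice, against 26.2, 49.1, 17.2 and 31.9 CPM in I-KO mice. Again I-KO 2 was highest and I-KO 3 lowest, with all lox/lox mice in between (log2 fold change -0.15, SE 0.29). Itln1 encodes intelectin 1, a lectin that binds microbial sugars, and was at 412, 465 and 359.5 CPM in lox/lox mice. In I-KO mice Itln1 was at 337, 644, 269 and 435 CPM, in the same order of extremes (log2 fold change -0.04, SE 0.26).

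Ang4 encodes angiogenin 4, a secreted ribonuclease with microbicidal activity. It was at 7.21, 8.54 and 9.08 CPM in lox/lox mice. In I-KO mice it fell into a pair at 6.37 and 6.36 CPM, in I-KO 1 and I-KO 3, and a pair at 21.2 and 16.2 CPM, in I-KO 2 and I-KO 4, on either side of the lox/lox mice. The mean was 8.28 ± 0.96 (SD, n = 3) against 12.6 ± 7.44 (SD, n = 4), which gave the only positive log2 fold change of the members, 0.38 (SE 0.38; exact permutation p = 0.429). Its residual spread was larger than that of 99.4% of the genes tested.

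The 3 alpha-defensins, which permeabilise bacterial membranes, had lower means in I-KO mice by amounts within the spread. Defa17 was at 76.5, 78.5 and 71.2 CPM in lox/lox mice, against 62.5, 102, 47.6 and 66.8 CPM in I-KO mice. Its SD was 3.80 among lox/lox mice and 23.2 among I-KO mice, around means of 75.4 and 69.9 CPM. Defa22 was at 20.7, 30.6 and 22.6 CPM in lox/lox mice, against 19.1, 40.6, 11.3 and 17.6 CPM in I-KO mice. For Defa22 3 of the 4 I-KO mice lay below every lox/lox mouse, and I-KO 2 lay above them (log2 fold change -0.28, SE 0.35; exact permutation p = 0.771). Defa26 was at 20.5, 24.4 and 17.1 CPM in lox/lox mice, against 14.9, 28.3, 13.6 and 20.1 CPM in I-KO mice. The log2 fold changes of Defa17 and Defa26 were -0.16 (SE 0.21) and -0.14 (SE 0.23).

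**Figure D2:**
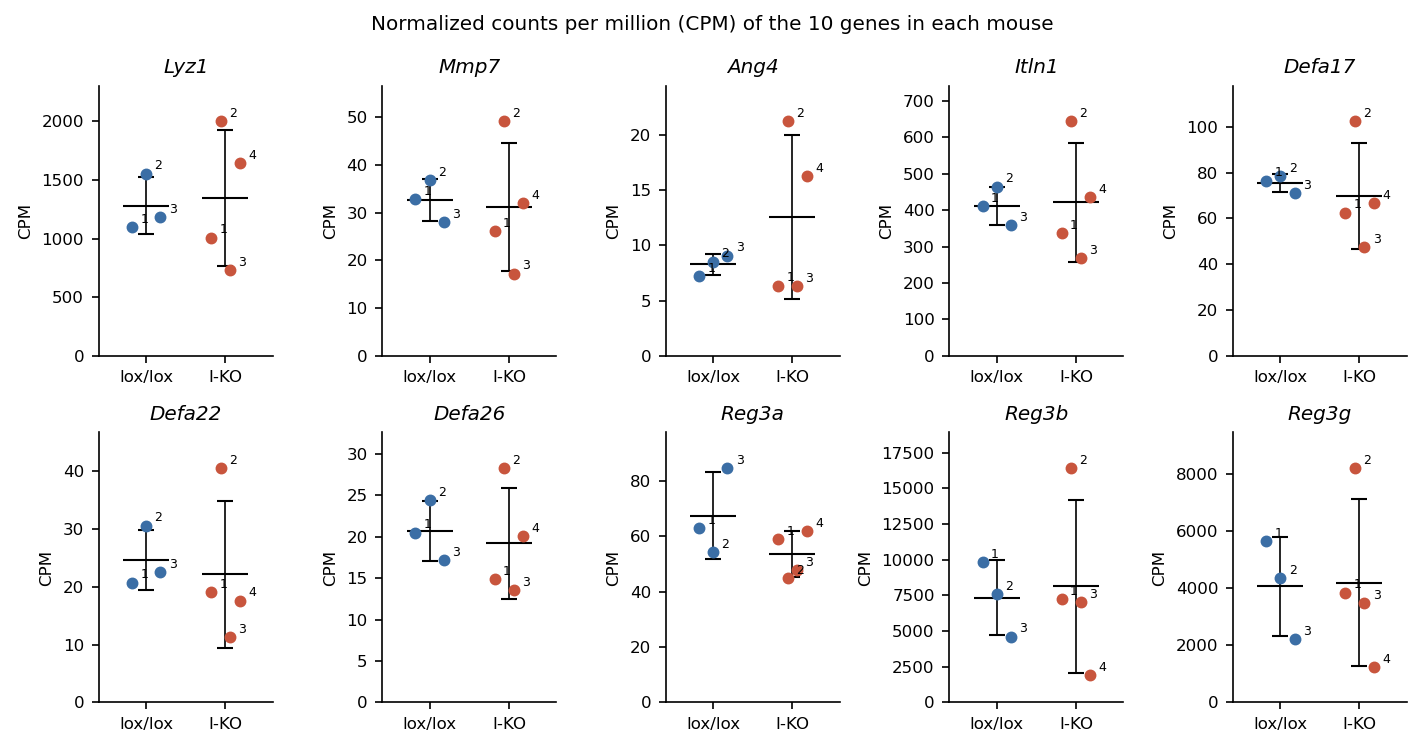
CPM of each gene in the 3 lox/lox mice (blue) and the 4 I-KO mice (red), with the mean and SD of each group as a bar with whiskers and the replicate number beside each point; each panel has its own axis from 0. In the 7 panels from Lyz1 to Defa26, I-KO 2 is the highest and I-KO 3 the lowest of the 7 mice, and in the panels of Reg3b and Reg3g I-KO 2 is highest and I-KO 4 lowest.

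Reg3b and Reg3g, which encode C-type lectins acting on bacteria at the epithelial surface, were the most abundant members. Per kilobase of transcript, the level of Reg3b averaged 9956 CPM and that of Reg3g 5379 CPM, against 1043 CPM for Lyz1, 366 CPM for Itln1, 182 CPM for Defa17 and between 15.1 and 72.0 CPM for the other 5. The ranges over mice of Reg3b (2419 to 20990 CPM per kilobase) and Reg3g (1591 to 10670) overlapped, and the lowest value of Reg3g was close to the highest of Lyz1 (1585). Those of Lyz1 (578 to 1585) and Itln1 (236 to 565) did not overlap, whereas that of Defa17 (120 to 258) overlapped that of Itln1. Together Reg3b and Reg3g made up between 0.321% of the summed values, in the library labelled I-KO 4, and 2.43%, in I-KO 2.

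Reg3b was at 9809.6, 7603 and 4605 CPM in lox/lox mice, against 7222, 16436, 6999.6 and 1894 CPM in I-KO mice. Reg3g was at 5657, 4357 and 2221 CPM in lox/lox mice, against 3849, 8226, 3493 and 1227 CPM in I-KO mice. Both genes had the same order of all 7 mice, from I-KO 2 and lox/lox 1 at the top to lox/lox 3 and I-KO 4 at the bottom. The ratio of Reg3g to Reg3b stayed between 0.482 and 0.648, while each of them spanned a wider range than any other member, 8.68-fold for Reg3b and 6.71-fold for Reg3g. The log2 fold changes were -0.15 (SE 0.61) and -0.15 (SE 0.56), and without the library labelled I-KO 4 they were 0.42 and 0.34. The direction for these genes therefore rested on single mice; without lox/lox 1 it was also positive, at 0.09 and 0.13.

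Reg3a, the third Reg3 lectin, did not share this order. It was at 63.0, 54.2 and 84.7 CPM in lox/lox mice, against 59.0, 45.0, 47.9 and 61.9 CPM in I-KO mice, and I-KO 2, the mouse with the most Reg3b and Reg3g, had the least Reg3a. Reg3a had the smallest unadjusted p of the members, 0.0928 in limma's test over all genes, with a log2 fold change of -0.32 (SE 0.17) and an exact permutation p of 0.171. Its mean was 67.3 ± 15.7 (SD, n = 3) against 53.5 ± 8.26 (SD, n = 4), and the groups overlapped. Without lox/lox 3 the log2 fold change was -0.14.

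The other Reg genes were described as the rest of the family. Reg1, a secreted lectin of the regenerating family, was at 1753, 1855 and 1182 CPM in lox/lox mice, against 1489, 1582, 1344 and 1905 CPM in I-KO mice (log2 fold change 0.0005, SE 0.17). It was highest in the library labelled I-KO 4, in which Reg3b and Reg3g were lowest. Reg4 was also highest there, at 83.3 CPM, against 45.3 to 57.6 CPM in the other 6 mice (log2 fold change 0.07, SE 0.20). Reg3d did not exceed 0.94 CPM in any mouse. Reg2 was at 6.51 CPM in I-KO 1 and did not exceed 0.73 CPM elsewhere. The summed pancreatic acinar markers, 15 of 17 of which were in the table and 3 of which were tested, were at 445 CPM in I-KO 1 and between 26.3 and 41.9 CPM in the other mice except lox/lox 2, which had 100 CPM. Without I-KO 1 the log2 fold changes of Reg3a, Reg3b and Reg3g were -0.37, -0.22 and -0.21.

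**Figure D3:**
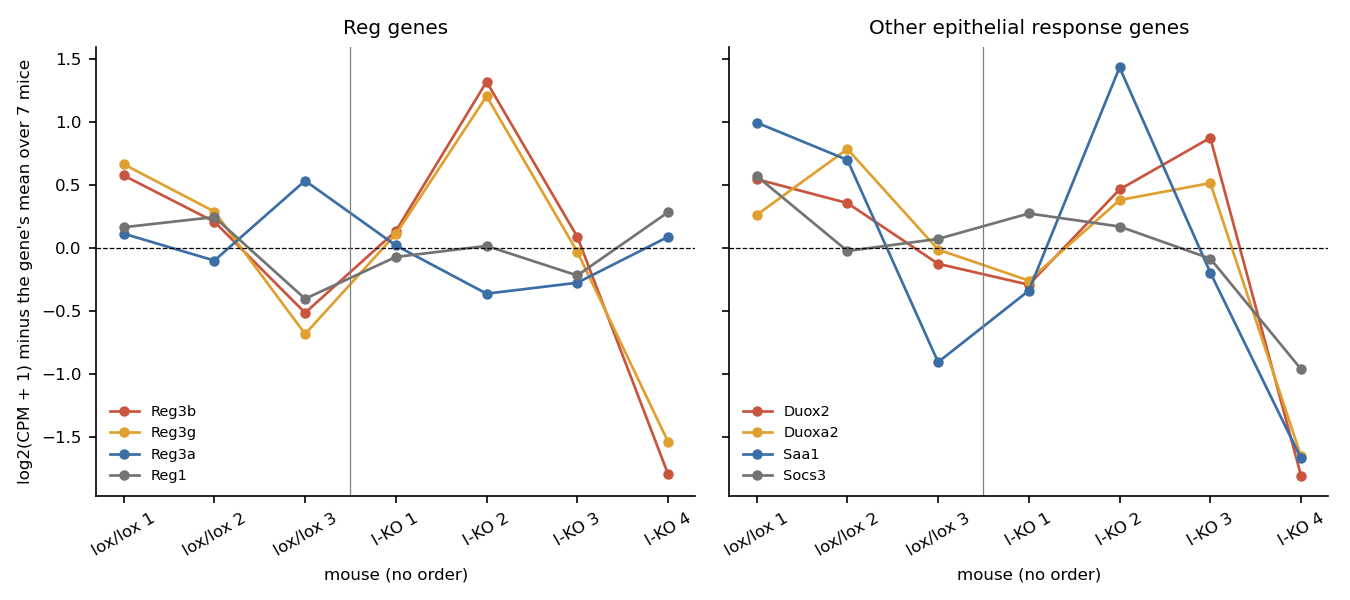
Log2(CPM + 1) minus the gene's own mean over the 7 mice, for 4 Reg genes (left) and for Duox2, Duoxa2, Saa1 and Socs3 (right), by mouse; a vertical line separates the genotypes, and lines only join the values of 1 gene. Reg3b and Reg3g are lowest in the library labelled I-KO 4, where Reg3a and Reg1 are above their means. The 4 genes on the right were picked because they too are lowest there.

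The 7 members outside the Reg3 family had the same extremes. All 7 were highest in I-KO 2 and lowest in I-KO 3, that is, in mice of the same genotype, whereas 298 of the 13399 genes tested (2.22%) had this pair of extremes. The ratio of the highest to the lowest value was between 2.09 (Defa26) and 3.60 (Defa22), against a median of 1.37 and a 90th percentile of 1.97 for all genes. Among the lox/lox mice alone the ratio was between 1.10 and 1.48 for these genes. Of the 10 members, 9 spanned a wider range among the 4 I-KO mice than among the 3 lox/lox mice, the exception being Reg3a. The same held for 73.7% of all genes, where groups of 4 and 3 are compared, and the difference in spread was not tested. This shared order was noticed in these values and is given as a description.

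Ratios between these members varied less over the mice than their levels. The ratio to Lyz1 spanned 1.41-fold for Itln1, 1.52-fold for Defa26, 1.54-fold for Mmp7, 1.71-fold for Defa17, 1.89-fold for Defa22 and 1.93-fold for Ang4. Mmp7 over Itln1 was between 0.0639 and 0.0798, a 1.25-fold range, whereas Mmp7 itself spanned 2.85-fold and Itln1 2.39-fold. Itln1 over Lyz1 was between 0.265 and 0.374. Lyz2, the lysozyme of macrophages and a near copy of Lyz1, went its own way, at 94.5, 113 and 142 CPM in lox/lox mice, against 156, 117, 119 and 121 CPM in I-KO mice. It was 0.0586 of Lyz1 in I-KO 2 and 0.162 in I-KO 3. The 6 macrophage markers in the table, of 7 listed, summed to 201, 251 and 271 CPM in lox/lox mice and to 321, 259, 292 and 266 CPM in I-KO mice, and Lyz2 was highest and lowest in the same mice as this sum. Of these C1qc, a complement gene, had the lowest p (log2 fold change 0.29, SE 0.12; limma's unadjusted p = 0.0478). The part of these cells in the level of Lyz2 was not tested.

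**Figure D4:**
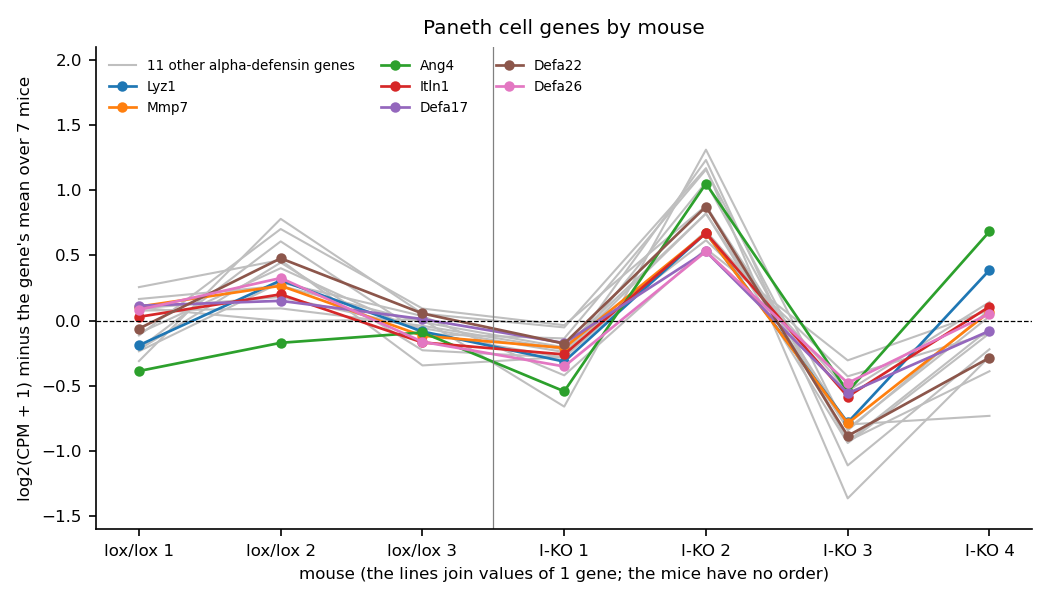
Log2(CPM + 1) minus the gene's own mean over the 7 mice, for the 7 members outside the Reg3 family (coloured points) and the 11 other alpha-defensin genes tested (grey lines), by mouse; a vertical line separates the genotypes, and lines only join the values of 1 gene. The 7 members lie between 0.53 and 1.05 in I-KO 2 and between -0.48 and -0.88 in I-KO 3.

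The alpha-defensins outside the members had the same pattern. The table holds 15 genes matched as alpha-defensins by symbol or RefSeq synonym, some under older symbols such as Gm15284 (Defa30) and Gm14851 (Defa38), and 14 were tested. Genes matched by neither are outside the counts, the ranking and the shares given here. Of these, 0 passed an adjusted p of 0.05 and 13 had a negative log2 fold change, with a median of -0.15 over the 14 and -0.13 over the 11 that are not members. All 14 were highest in I-KO 2, and 13 were lowest in I-KO 3, with Defa-ps1, which was lowest in I-KO 1, as the exception. The most abundant were Gm15284, at 620.1, 665 and 548 CPM in lox/lox mice and 479, 978, 288 and 516 CPM in I-KO mice, and Gm14851, at 419, 446 and 377 CPM against 332, 695, 221 and 402 CPM. Defa5 spanned 4.84-fold and Gm21002 6.49-fold. Defa20, Defa21, Defa3, Gm15292 and Gm15315 spanned between 2.28-fold (Defa3) and 5.97-fold (Gm15315), and Gm6696 was at most 0.59 CPM. The 3 member defensins made up between 7.65% and 10.8% of the summed alpha-defensin values. Defa17 and Defa3 share most of their windows of 100 bases, and both also share windows with Gm15284. Defa22 and Defa21 share part of theirs. Of the windows of Defa5 11.9% were unique, and Gm15315 (Defa34) was among the genes sharing the rest. For Defa20 the share was 0.307%, with Gm21002 (Defa33) among the sharing genes. Alpha-defensins that share windows are not independent measurements. Of the alpha-defensins, 10 could be placed in GRCm38, all in chr8:21025545-21695853.

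Other products known from Paneth cells did not all follow. Of 14 tested genes of that list, 8 had positive and 6 negative log2 fold changes and 0 passed an adjusted p of 0.05, with a median of 0.11. Pla2g2a, Habp2, Sox9 and Wnt3 are named for their values or roles and not by their fold change. Pla2g2a, a secreted phospholipase that is inactive in C57BL/6 mice, was at 8.89, 7.98 and 5.74 CPM in lox/lox mice, against 7.14, 10.8, 6.09 and 6.32 CPM in I-KO mice. The largest differences were those of Tnf (log2 fold change -0.54, SE 0.33), for which lox/lox 2 at 7.81 CPM stood above the 1.78 to 2.39 CPM of the other mice, and of Clps (0.20, SE 0.20), which is also a pancreatic gene. Of the 14 genes, 6 were highest in I-KO 2, against 7.96% of all genes tested, and 3 were lowest in I-KO 3, against 17.1%. Only Habp2 of this list had both. Lyz2, the lysozyme of macrophages, is part of this list.

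No gene of Paneth cell specification and of the crypt niche passed the threshold over all genes. Of 20 tested, 15 had negative and 5 positive log2 fold changes, 0 passed an adjusted p of 0.05, and the median was -0.04. Xbp1, a transcription factor that secretory cells need for their endoplasmic reticulum, was at 302, 308 and 311 CPM in lox/lox mice, against 259, 283, 238 and 258 CPM in I-KO mice. These groups did not overlap (log2 fold change -0.24, SE 0.08), but in limma's test the unadjusted p of 0.0171 became an adjusted p of 0.954. Bhlha15, a factor of secretory cell maturation, followed with -0.20 (SE 0.17). Sox9, which Paneth cells need to form, was at 8.24, 8.28 and 6.88 CPM in lox/lox mice, against 6.18, 9.55, 5.72 and 8.68 CPM in I-KO mice. Of the 20 genes, 2 shared the extremes of the 7 members, against 2.22% of all genes tested. They were Sox9 and Wnt3, a Wnt ligand that Paneth cells make for the stem cells. Wnt3 was near the filter on low values, at 1.38, 1.37 and 1.06 CPM in lox/lox mice, against 0.91, 1.77, 0.74 and 1.57 CPM in I-KO mice. Another 4 of the 20 genes, Gfi1, Bhlha15, Tcf7l2 and Dll4, were lowest in the library labelled I-KO 4.

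Marker lists of other cells were compared between I-KO 2 and I-KO 3 without a test. Relative to each gene's mean over the 7 mice, the 7 members had a median of 0.67 on the log2 scale in I-KO 2 and -0.58 in I-KO 3. The 5 proliferating progenitor markers had medians of 0.23 and -0.38, and all 5 were lowest in I-KO 3. The 4 stem cell markers had medians of 0.40 and -0.27. Lgr5, a receptor that marks the stem cells, was at 4.94, 5.92 and 4.48 CPM in lox/lox mice, against 5.60, 8.29, 7.36 and 7.07 CPM in I-KO mice (log2 fold change 0.40, SE 0.13; limma's unadjusted p = 0.0140). The 8 goblet cell markers had medians of -0.02 and 0.03, and the 7 enterocyte markers -0.12 and 0.24. The 3 adipocyte markers had medians of 0.18 and -0.62, and the 2 Brunner gland and stomach markers tested 0.13 and -0.31. Of these genes only Fabp4 exceeded 7.68 CPM, and it was lowest in the library labelled I-KO 4. Of the 4 enteroendocrine markers 3 were lowest in I-KO 3. Medians were -0.40 and 0.38 for T and intraepithelial lymphocytes, -0.16 and 0.21 for B and plasma cells, and 0.02 and 0.10 for macrophages. They were 0.01 and 0.03 for smooth muscle, -0.005 and 0.10 for tuft cells, 0.14 and 0.10 for duodenal identity, and -0.40 and -0.48 for pancreatic acinar cells. In a piece of duodenum fewer Paneth cells and less RNA per Paneth cell cannot be told apart, and the part of crypt content or of other tissue in these values was not tested.

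Genes of the signals that act on Reg3b and Reg3g were near the median of all genes. Of 25 tested genes of IL-22, STAT3 and MyD88 signalling, 15 had negative and 10 positive log2 fold changes, 0 passed an adjusted p of 0.05, and the median was -0.06. Socs3, a feedback inhibitor induced by STAT3, had the largest difference (-0.36, SE 0.28), followed by Il1b (-0.27, SE 0.14). Socs3 was at 49.9, 32.7 and 35.0 CPM in lox/lox mice, against 40.4, 37.5, 31.3 and 16.6 CPM in I-KO mice, with the library labelled I-KO 4 lowest. That library was lowest for 6 of the 25 genes (24.0%), against 17.4% of all genes tested. Il18r1, a receptor chain for IL-18, had an unadjusted p of 0.0462 in limma's test (log2 fold change -0.22, SE 0.09; adjusted p = 0.954). The cytokine genes Il22, Il17a, Il6 and Il23a were not among the listed genes.

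Of 23 other antimicrobial and barrier genes tested, 14 had negative and 9 positive log2 fold changes and 0 passed an adjusted p of 0.05, with a median of -0.14. Nos2, the inducible nitric oxide synthase, was at 37.7, 167 and 68.4 CPM in lox/lox mice, against 22.7, 40.3, 26.2 and 34.1 CPM in I-KO mice, with an overlap of I-KO 2 and lox/lox 1 (log2 fold change -1.31, SE 0.42; limma's unadjusted p = 0.0133, adjusted p = 0.929). Saa3, a serum amyloid A gene, was near the filter on low values, at means of 1.63 and 0.98 CPM (log2 fold change -0.41, SE 0.17; unadjusted p = 0.0402 and adjusted p = 0.954 in limma's test). Fut2, the fucosyltransferase that decorates the epithelial surface, varied the most, from 77.9 CPM in lox/lox 1 to 0.79 CPM in the library labelled I-KO 4 (log2 fold change -1.19, SE 1.12).

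In this list 12 of the 23 genes (52.2%) were lowest in the library labelled I-KO 4, as were Reg3b and Reg3g, against 17.4% of all genes tested. Of the 12, Duox2, Duoxa2, Saa1 and Lcn2, are named here because of their values. Duox2, an epithelial oxidase, was at 116, 102 and 72.5 CPM in lox/lox mice, against 64.5, 109.6, 146 and 21.9 CPM in I-KO mice. Its maturation factor Duoxa2 was at 5.79 CPM in the library labelled I-KO 4 and between 16.9 and 35.9 CPM in the other mice. Saa1 was at 7.45, 5.88 and 1.26 CPM in lox/lox mice, against 2.35, 10.4, 2.70 and 0.33 CPM in I-KO mice, with the same highest and lowest mouse as Reg3b. Lcn2, an iron-scavenging defence protein, was at 0.99 CPM in the library labelled I-KO 4 and between 1.38 and 10.2 CPM elsewhere. Of the 8 goblet cell markers 4 were lowest there, of which Muc2, Tff3 and Zg16 are among the 12 genes just counted, as were 4 of the 5 B and plasma cell markers tested, and none of the 5 neutrophil markers was in the table. Whether these cell types play a part in the low Reg3b and Reg3g of that mouse was not tested.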

How the data were processed

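Duodenal RNA of 3 Ppara lox/lox and 4 Ppara I-KO mice was sequenced by the authors from stranded mRNA libraries as single reads of 100 bases, and groups were taken from the sample labels. The deposited values, made by the authors, are a normalised signal: read counts per gene divided by an adjusted library size (CPM), rounded to 2 decimals. The submitters' processing notes name FastQC 0.11.2, TopHat2 2.0.13, Picard 1.80, HTSeq 0.6.1 and edgeR, with mm10. Counting of reads that fit several genes is not given in the sources used here.

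The 13399 of 14795 genes that exceeded 1 CPM in 3 or more libraries were fitted on log2(CPM + 1) with limma 3.58.1 in R 4.3.3, with a term for genotype. Tests are two-sided and p-values adjusted by the Benjamini-Hochberg method over all genes tested, with a threshold of 0.05. Count tests were not run, since the values are described as normalised counts, for which a log scale and limma were used. The test was tried on simulated data first. Members were also compared by an exact two-sided permutation test of mean CPM over the 35 splits of the mice, whose smallest possible p is 0.0286. Replicate numbers are not known to pair the mice, and no pairing was used in the main fit.

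The median-of-ratios factors of the deposited columns were between 1 and 1.01. Reads per library were estimated from the smallest step between values. Unique windows of 100 bases were counted in GENCODE M21 transcripts, and promoters come from RefSeq (GRCm38.p6). Alpha-defensins under older symbols were matched through RefSeq synonyms. Values of 1 further alpha-defensin, which is included in the counts, are not reported here. The genes named are the 10 members, the other alpha-defensin and Reg genes, Lyz2, Ppara and, per list, genes past the threshold, up to 3 with an unadjusted p below 0.05 and the 2 with the largest difference, and from marker lists those a result turns on. Others are said to be named for their values. The members and lists were chosen with earlier results of these data known. Alternatives were other scalings, no filter, a pseudocount of 0.5, other thresholds, a replicate block, a trended robust fit and each library left out. Counting and plotting were done in Python 3.11.15 (matplotlib 3.10.9, pandas 2.3.3, numpy 2.4.6).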

Additional observations from a re-analysis of the deposited data

How the results depend on the processing

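No member passed the threshold under any of the 13 alternatives. Of 130 member fold changes recomputed, 116 kept their direction and 14 reversed, and the smallest adjusted p was 0.654 in limma's test. Leaving out 1 library gave log2 fold changes between -0.25 and 0.24 for Lyz1, -0.40 and 0.090 for Mmp7, -0.27 and 0.15 for Itln1, -0.36 and 0.00066 for Defa17, -0.61 and 0.42 for Reg3b, -0.58 and 0.34 for Reg3g, and, without a change of sign, 0.08 (without I-KO 2) and 0.61 for Ang4, -0.61 and -0.02 for Defa22, -0.34 and -0.005 for Defa26 (for both genes without I-KO 2 and without I-KO 3, in this order), and -0.46 and -0.14 for Reg3a. Signs turned positive without I-KO 3 (Lyz1, Mmp7, Itln1, Defa17), without lox/lox 2 or I-KO 1 (Lyz1, Itln1), and without lox/lox 1 or the library labelled I-KO 4 (Reg3b, Reg3g).

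With the replicate number as a block the fold changes were 0.42 for Reg3b and 0.34 for Reg3g, the values without the library labelled I-KO 4, since no lox/lox mouse has the number 4. The numbers are not known to pair mice of unlike genotype and were not taken as pairs. Same-numbered mice had deviations correlated at -0.01, 0.18 and -0.01, and mice of unlike number between -0.35 and 0.28. With so few mice these values cannot decide whether the numbers pair them. The block changed no member's call.

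Over the gene lists, 1 gene (Me1) passed the threshold, against 0.0299% of all genes tested. At an unadjusted p of 0.05 in limma's test the count was 14, against 4.74% of all genes tested. Of these, 10 were among the 14 PPARα targets and 2 among the 23 other antimicrobial and barrier genes. The signalling list and the specification and niche list held 1 each, of 25 and 20 tested. At the adjusted threshold the count was 0 with column totals, a pseudocount of 0.5 or the replicate block, and 2 with the trended robust fit. It was 0 to 1 with a library left out, being 0 without lox/lox 3, I-KO 1, I-KO 2 or I-KO 3. Without lox/lox 1 the gene was Cyp4a10 in place of Me1. The causes were not tested. With 3 and 4 mice the confidence intervals stay wide.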
